A study of Mus musculus with 4 samples.

Results

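The genes described here are 10 genes of AP-1 and immediate early transcription factors, among 55421 gene identifiers counted in all. They are Fos, Fosb, Fosl1 and Fosl2 of the Fos family, Jun, Junb and Jund of the Jun family, Egr1 and Egr2 of the Egr zinc finger family, and the orphan nuclear receptor gene Nr4a1. They were taken by name, and each matched 1 Ensembl identifier through its symbol in a GENCODE annotation of GRCm38. RNA came from wild-type C57BL/6 mice, and each diet, normal chow (NCD) or high-fat (HFD), is represented by 2 libraries. The labels give neither the age of the mice, nor the composition or length of the diets, nor whether 2 libraries of 1 diet stand for different animals. The p-values thus weigh the difference between the diets against the scatter among these libraries. That scatter may be technical, so the p-values cannot be taken to extend to other mice. Library totals ranged from 56740720 to 64490097 counts.

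The labels call the material macrophages of the islet, and the protocol speaks of freezing whole isolated islets and of TRIzol extraction from their macrophages, with no step that separates these cells described. Macrophage markers were present, with Csf1r at 86.6 ± 5.09 CPM (CPM are counts scaled to a common library total; SD, n = 2) and Adgre1, which encodes F4/80, at 30.7 ± 1.70 CPM in NCD. Hormone transcripts stood far above them, with Ins2 at 9836 ± 84.6 CPM and Gcg at 9256 ± 311 CPM in NCD. The 10 genes are therefore described as those of a mixed islet preparation. In such bulk RNA, a change in the number of cells of a type and a change in RNA per cell cannot be told apart.

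Immediate early genes are switched on within minutes of a growth factor, cytokine or stress signal and need no new protein synthesis for it. Fos and Jun proteins are basic leucine zipper factors that pair to form AP-1, in which a Fos protein needs a Jun partner while Jun proteins also pair with each other. Egr1 and Egr2 bind GC-rich sites through zinc fingers, and Nr4a1 is a nuclear receptor that acts without a known natural ligand. In islets, glucose and calcium entry induce several of these genes in beta cells, and in macrophages microbial and inflammatory signals do so. Enzymatic digestion and mechanical handling of tissue induce them as well.

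The promoters of these genes are known for short response elements, so the 250 bases upstream of the RefSeq start were read for the 8 members that matched the promoter table (RefSeq, GRCm38.p6), which are all but Fosl1 and Egr1. Searched on both strands were the core TGACG of the cAMP response element, the AP-1 site TGANTCA, its longer form TGANNTCA, the Egr site GCGGGGGCG and the CArG box, which serum response factor binds, and on the coding strand only the TATA box TATAAA. A full cAMP response element matches both TGACG and TGANNTCA. The 4 windows below are shown because they hold an example of each kind of match found in a member, 5′ to 3′ on the gene's strand, with the matches in capitals. They lie at chr12:85473640-85473889 (plus strand) for Fos, chr4:95052223-95052472 (minus strand) for Jun, chr10:67537619-67537868 (plus strand) for Egr2 and chr15:101266596-101266845 (plus strand) for Nr4a1. The Egr2 window belongs to 1 of its 5 RefSeq starts, and the Egr2 and Nr4a1 windows lie inside the GENCODE spans of their genes. Other RefSeq starts of Egr2 lie upstream of the printed window, so that window may hold transcribed bases.
Fos: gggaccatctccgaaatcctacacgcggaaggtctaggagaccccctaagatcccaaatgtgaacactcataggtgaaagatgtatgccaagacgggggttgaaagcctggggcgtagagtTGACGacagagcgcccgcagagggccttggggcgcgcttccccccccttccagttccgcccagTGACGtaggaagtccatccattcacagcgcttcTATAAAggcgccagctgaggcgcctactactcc
Jun: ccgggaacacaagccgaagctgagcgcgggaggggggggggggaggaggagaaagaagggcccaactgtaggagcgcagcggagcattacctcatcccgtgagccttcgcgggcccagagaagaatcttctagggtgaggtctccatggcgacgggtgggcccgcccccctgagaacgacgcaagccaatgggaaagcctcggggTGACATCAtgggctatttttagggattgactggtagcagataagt
Egr2: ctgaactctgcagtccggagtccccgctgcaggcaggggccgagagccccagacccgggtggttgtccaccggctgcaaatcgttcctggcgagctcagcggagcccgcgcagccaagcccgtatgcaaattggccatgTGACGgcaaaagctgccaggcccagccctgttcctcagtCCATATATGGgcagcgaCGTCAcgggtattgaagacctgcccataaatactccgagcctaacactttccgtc
Nr4a1: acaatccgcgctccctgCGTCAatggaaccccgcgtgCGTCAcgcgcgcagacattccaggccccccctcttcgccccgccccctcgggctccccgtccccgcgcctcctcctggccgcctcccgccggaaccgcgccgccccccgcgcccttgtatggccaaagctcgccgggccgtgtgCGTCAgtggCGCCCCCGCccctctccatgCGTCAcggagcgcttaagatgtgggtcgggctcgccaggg

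TGACG was found upstream of 5 of the 8 members (Fos, Fosb, Junb, Egr2 and Nr4a1), against 19.8% of 27025 genes with windows of the same length, where a gene counts if any of its windows matches. Egr2 was searched in 5 overlapping or nearby windows and each other member in 1, so Egr2 had more chances of a match. Nr4a1 holds 4 copies in its window and Fos 2. The Egr site was found in 3 members (Fosb, Fosl2 and Nr4a1), against 2.93% of all genes. A CArG box was found in 1 member, Egr2, against 1.62% of all genes, and the TATA box in 1, Fos, against 8.94%. The form TGANNTCA was found in 2 members, Jun and Jund, against 13.5%, and TGANTCA in 0 of 8, against 7.82%. The Jund window follows a RefSeq start that lies upstream of the GENCODE gene. These matches describe letters in a window and were not tested as binding sites.

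The comparison of HFD with NCD asked whether the transcripts of these factors differed with diet. All 10 had enough counts to be tested, and all 10 were higher in HFD by edgeR's quasi-likelihood test with Benjamini-Hochberg adjustment over 21563 genes, whereas 17.9% of all tested genes were called higher and 14.5% lower. In all 10 both HFD libraries lay above both NCD libraries, as they did in 34.5% of all tested genes. A rise of at least 2-fold was called in 9 of the 10, against 10% of all tested genes, and the exception was Jund. The median log2 change was 1.57 over the 10 genes and 0.00 over all tested genes. The members had been proposed with results of these data in view, so these counts describe them and do not test them as a set.

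**Figure D1:**
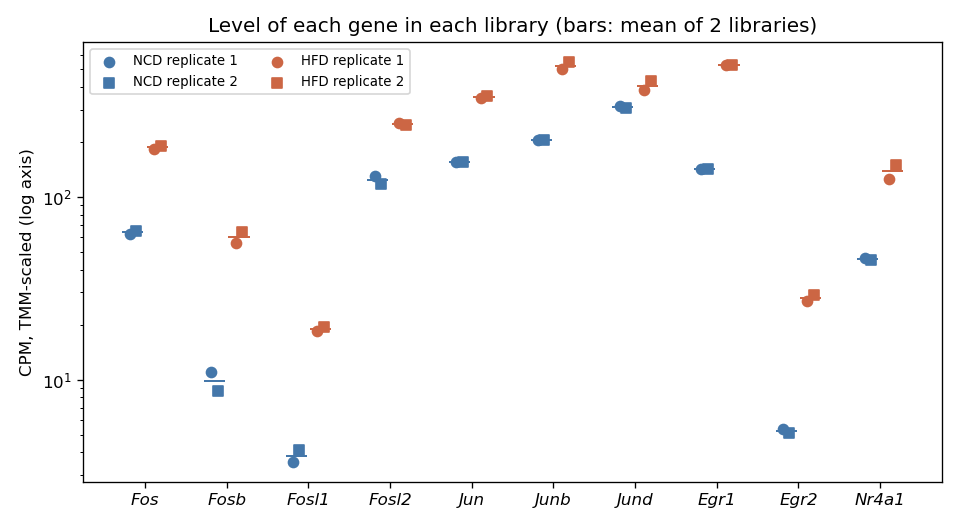
Level of each of the 10 genes in each of the 4 libraries, as CPM on a log axis, with short bars at the mean of the 2 libraries of a diet. Both HFD libraries lie above both NCD libraries for every gene, and the gap is narrowest for Jund (305.5 to 315.5 CPM in NCD and 383.0 to 427.5 CPM in HFD).

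Within the Fos family, Fos itself, the archetype of the class, stood at 63.0 and 65.0 CPM in the NCD libraries and at 183 and 191 CPM in the HFD libraries. Libraries of a diet lay close together and the diets did not overlap. The fitted rise was 2.92-fold (log2 change 1.55, SE 0.05, edgeR adjusted p = 6.705e-05). The gene spans 85473890 to 85477273 on the plus strand of chromosome 12. Fosb, whose product forms AP-1 like Fos and has a long-lived short variant in neurons, went from 10.9 and 8.72 CPM to 55.7 and 64.4 CPM. That was a 6.11-fold rise (log2 change 2.61, SE 0.14, edgeR adjusted p = 0.0002322), from 706 and 542 counts in the NCD libraries. Fosb lies at 19302696 to 19310051 on the minus strand of chromosome 7.

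Fosl1, which encodes FRA-1, a Fos protein without the strong transactivation domain of Fos, was the least counted member, with 230 and 255 counts in NCD and 1147 and 1094 in HFD. Its level was 3.57 and 4.10 CPM under NCD and 18.5 and 19.3 CPM under HFD, a 4.93-fold rise (edgeR adjusted p = 0.0002955). Fosl1 spans 5447547 to 5455946 on the plus strand of chromosome 19, and 1163 bases of its exons overlap those of Ccdc85b on the other strand. The sources used here do not give the strand setting of the counting, so reads of this stretch may have been assigned to either gene or to neither. Ccdc85b itself had 3303 and 3571 counts in NCD and 4082 and 4097 in HFD. Fosl2, which encodes FRA-2, was the most counted Fos gene, at 130.0 and 117.9 CPM under NCD and 253 and 247 CPM under HFD. It rose 2.02-fold (log2 change 1.01, SE 0.06, edgeR adjusted p = 0.0003141). Its locus is 32135801 to 32157842 on the plus strand of chromosome 5.

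Jun, the founding member of its family and a core component of AP-1, went from 154 and 156 CPM under NCD to 349 and 354 CPM under HFD. The 2 libraries of a diet differed by far less than the diets did, and the rise was 2.27-fold (log2 change 1.18, SE 0.04, edgeR adjusted p = 6.705e-05). Jun is a gene without introns at 95049034 to 95052222 on the minus strand of chromosome 4. Junb, which can pair like Jun but activates many AP-1 sites more weakly, went from 205.4 and 205.0 CPM to 498 and 544 CPM. Its rise was 2.54-fold (log2 change 1.34, SE 0.05, edgeR adjusted p = 9.679e-05), and its locus is 84974484 to 84978718 on the minus strand of chromosome 8.

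Jund, the member of the family that many cells express without stimulation, stood at 315.5 and 305.5 CPM under NCD and 383.0 and 427.5 CPM under HFD. The diets did not overlap, but the 2 HFD libraries differed by more than the 2 NCD libraries. Its rise of 1.30-fold was the smallest of the 10 (log2 change 0.38, SE 0.06, edgeR adjusted p = 0.007422). Jund lies at 70698949 to 70700616 on the plus strand of chromosome 8. Antisense or opposite-strand neighbours also overlap exons of the Jun genes, by 232 bases for Jun (Junos), 173 for Junb (Prdx2) and 877 for Jund (Gm11175). Junos had 86 to 122 counts and Gm11175 33 to 107 counts per library, far below the 9671 to 30810 counts of these Jun genes, while Prdx2 had 5681 to 6642.

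Egr1, an early growth factor response gene that serum response factor drives in many cells, had the smallest SE of the 10. It stood at 142.3 and 141.2 CPM under NCD and at 523 and 526 CPM under HFD. The 3.70-fold rise (log2 change 1.89, SE 0.04) had the smallest adjusted p among the members (edgeR adjusted p = 2.547e-05). Its gene lies at 34859823 to 34864984 on the plus strand of chromosome 18. Egr2, known for its part in nerve myelination and in setting limits to lymphocyte and macrophage activation, went from 5.37 and 5.10 CPM to 26.8 and 29.2 CPM. That was a 5.35-fold rise (log2 change 2.42, SE 0.11, edgeR adjusted p = 0.0001528) at a locus on the plus strand of chromosome 10 from 67535475 to 67542188.

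Nr4a1, which encodes NUR77 and is induced by calcium and by antigen receptor signals, went from 46.2 and 45.3 CPM under NCD to 126 and 150 CPM under HFD. Its HFD libraries were the farther apart, yet both lay well above the NCD libraries. The rise was 3.01-fold (log2 change 1.59, SE 0.09, edgeR adjusted p = 0.0002945). Nr4a1 spans 101254269 to 101274795 on the plus strand of chromosome 15.

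In order of their log2 change the members were Fosb, Egr2, Fosl1, Egr1, Nr4a1, Fos, Junb, Jun, Fosl2 and Jund. The 95% intervals of Fosb (2.25 to 2.97), Egr2 (2.13 to 2.71) and Fosl1 (1.96 to 2.65) overlapped each other. Those of Nr4a1 (1.35 to 1.83), Fos (1.41 to 1.68) and Junb (1.21 to 1.48) also overlapped. The interval of Egr1 (1.79 to 1.99) overlapped those of Fosl1 and Nr4a1, and that of Jun (1.08 to 1.29) those of Junb and Fosl2, so that these members form no separate tiers. The interval of Jund (0.23 to 0.54) lay below those of all other members, of which Fosl2 (0.86 to 1.17) was the nearest. Among all tested genes, the changes of the members ranged from the 71.1st percentile for Jund and the 85.2nd for Fosl2 to the 95.3rd for Fosb.

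**Figure D2:**
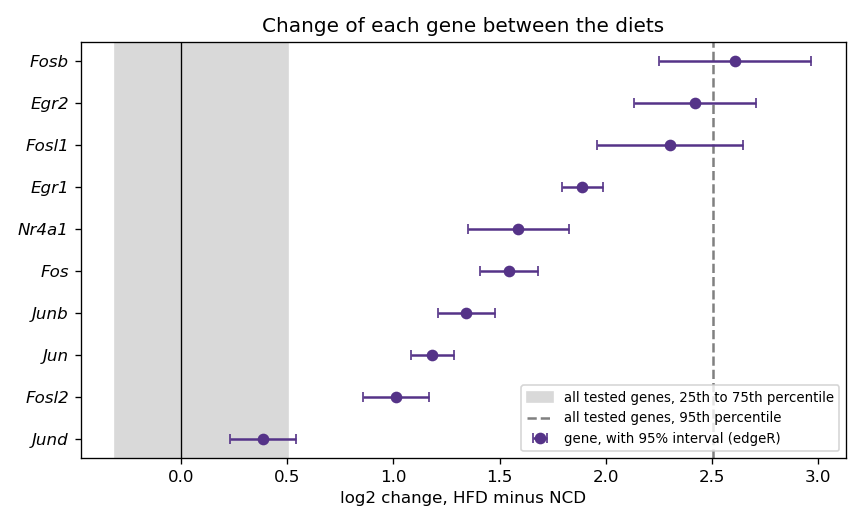
Change of each of the 10 genes between the diets, as log2 of HFD over NCD with its 95% interval from edgeR, beside the spread of all tested genes. Jund (0.38) lies within the grey band of the middle range of all genes (-0.31 to 0.50), and Fosb (2.61) lies beyond their 95th percentile (2.51).

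Levels of different genes can be compared only per length, here as CPM per kilobase of exon. On that scale Jund was the highest member in NCD, at 186, followed by Junb at 89.2, Jun at 48.6, Egr1 at 31.6 and Fos at 27.2 CPM per kilobase. Nr4a1 (13.05) and Fosl2 (12.8) came next, and Fosl1 (1.89), Fosb (1.57) and Egr2 (1.54) were the lowest. In HFD Jund stood at 243 and Junb at 226 CPM per kilobase, with Egr1 at 117 and Jun at 110.3. With the longest transcript as length, Junb stood above Jund in HFD (44.9% and 37.9% of the Jun family sum), and in NCD Fosl2 stood above Nr4a1 and Fosb above Fosl1. The order within these pairs thus depends on the length used. Among all tested genes, Jund stood at the 99.3rd percentile of the level per kilobase in NCD and the 99.4th in HFD, while Egr2 moved from the 39.5th to the 68.0th. Members with a low level in NCD tended to have the larger change (Spearman's rho -0.76 across the 10 genes). The same relation across 21538 genes gave a rho of -0.31. The NCD level enters both measures, and genes are not independent replicates, so these are descriptions.

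The make-up of the transcript pools that can pair into AP-1 differed between the diets. The summed Fos family was 43.7 and 43.2 CPM per kilobase in NCD and 122.0 and 126 in HFD, and the Jun family 327 and 321 in NCD and 555 and 604 in HFD. Fos family transcripts per Jun family transcript were 0.134 and 0.135 in NCD and 0.220 and 0.209 in HFD. Within the Jun family the share of Jund was 57.5% ± 0.590 in NCD and 41.9% ± 0.791 in HFD (SD, n = 2), and that of Junb 27.5% ± 0.308 and 39.0% ± 0.130. Jun made up 15% ± 0.282 in NCD and 19.1% ± 0.920 in HFD. Within the Fos family, Fos held 62.6% ± 1.90 in NCD and 63.9% ± 0.296 in HFD, a difference smaller than the NCD spread. Fosl2 stood at 29.5% ± 1.81 and 20.8% ± 0.926, Fosb at 3.62% ± 0.554 and 7.74% ± 0.597, and Fosl1 at 4.34% ± 0.461 and 7.50% ± 0.0333. These shares are given as values without a test. No permutation test was run, since an exact two-sided one cannot give a p below 0.333 with 2 against 2 libraries.

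**Figure D3:**
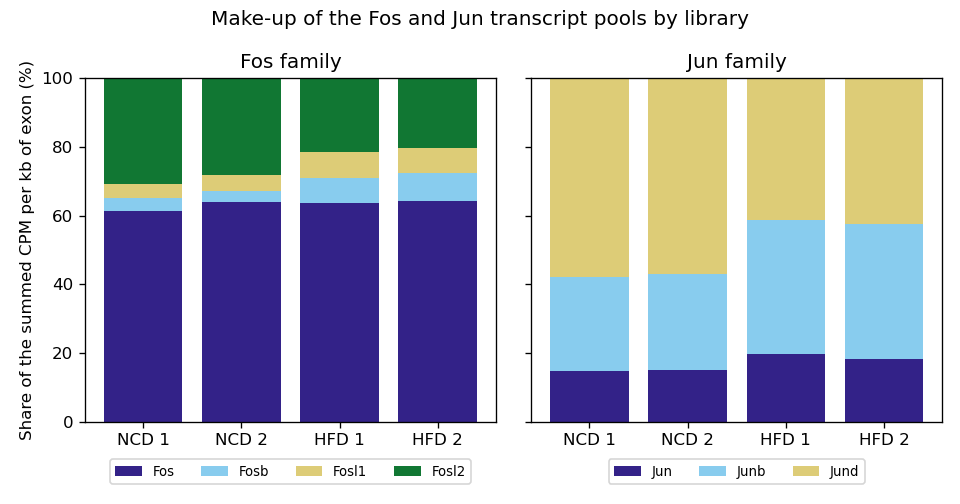
Make-up of the Fos family (left) and Jun family (right) transcript pools in each library, as each gene's percent of the summed CPM per kilobase of exon. Jund takes 57.1% to 57.9% of the Jun pool in the NCD libraries and 41.3% to 42.5% in the HFD libraries, and Fos takes 61.2% to 64.2% of the Fos pool in all 4.

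Other genes of the immediate early response were taken from a list of 18, of which 17 had enough counts to be tested and Egr4 did not. Of these, 16 were higher in HFD and 0 lower, with a median log2 change of 1.26. For this and the lists below, the shares over all tested genes were 17.9% called higher and 14.5% called lower. Egr3, a close relative of Egr1 and Egr2, rose from 3.22 ± 0.230 to 32.2 ± 0.00771 CPM (edgeR adjusted p = 6.705e-05). Ier3, an early survival gene, rose from 71.7 ± 3.60 to 248 ± 7.99 CPM, and Ier2 from 36.6 ± 1.28 to 127.0 ± 4.18 CPM. Ccn1, a matrix-associated early gene, rose from 13.7 ± 0.774 to 62.2 ± 3.03 CPM. Of the paralogs of Nr4a1, both singled out after their values were seen, Nr4a2 rose from 7.75 ± 1.33 to 24.0 ± 1.34 CPM. Nr4a3 was the 1 gene not called, at 5.09 and 4.83 CPM under NCD and 7.06 and 16.6 CPM under HFD (edgeR adjusted p = 0.0645). Its HFD libraries lay far apart, and the log2 change of 1.252 became 1.75 without HFD replicate 1 (edgeR adjusted p = 0.00304) and 0.51 without HFD replicate 2 (0.158). Leaving out NCD replicate 1 or 2 gave no call for Nr4a3 (edgeR adjusted p = 0.155 and 0.1685).

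The other basic leucine zipper factors that can join AP-1 or its relatives were more mixed. Of 14, all tested, 6 were higher, 1 was lower and 7 were not called, with a median log2 change of 0.25. Maf, a factor of resident macrophages and some lymphocytes, rose from 8.26 ± 0.314 to 32.8 ± 2.00 CPM (edgeR adjusted p = 0.000201), and Jdp2, a repressor that pairs with Jun, from 6.99 ± 0.132 to 14.2 ± 0.406 CPM. Batf, an AP-1 factor of lymphocytes and dendritic cells, rose from 2.44 ± 0.317 to 6.51 ± 0.866 CPM. Atf7 rose from 75.6 ± 2.13 to 93.2 ± 5.31 CPM (edgeR adjusted p = 0.0205). With NCD replicate 1, NCD replicate 2 or HFD replicate 2 left out, Atf7 was no longer called (edgeR adjusted p = 0.0574, 0.0893 and 0.0941). Atf2 was the 1 lower gene (105.6 ± 3.57 and 89.8 ± 1.96 CPM, edgeR adjusted p = 0.0281), and its call was lost whichever library was left out (0.0525 to 0.120). Atf3, a stress-induced partner of Jun singled out after its values were seen, stood at 86.7 and 92.0 CPM under NCD and 82.8 and 86.0 CPM under HFD (edgeR adjusted p = 0.363). Both HFD libraries lay just below both NCD libraries, without a call.

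Upstream of the members, transcripts of the MAP kinase pathways that phosphorylate Fos, Jun and the ternary complex factors showed no common direction. Of 15 kinases tested, 5 were higher and 2 lower, with a median log2 change of 0.02. Over all tested genes 17.9% were called higher and 14.5% lower, so the 2 lower kinases are near that share. Braf, a kinase at the top of the ERK pathway, fell from 236 ± 1.67 to 172 ± 7.31 CPM (edgeR adjusted p = 0.0020), and Mapk10, a JNK gene of neurons and endocrine cells named after its values were seen, fell from 34.8 ± 1.91 to 22.8 ± 1.51 CPM. Map2k3, a kinase of p38, rose from 33.3 ± 1.33 to 48.0 ± 1.21 CPM, Map3k1 from 90.2 ± 2.18 to 117.9 ± 2.49 CPM and Map2k1 from 111.6 ± 1.2 to 141.6 ± 0.206 CPM. Transcript levels say nothing of kinase activity. Of 6 genes of serum response factor and its cofactors, 4 were higher and 0 lower (median log2 change 0.35), with Srf itself rising from 47.3 ± 3.81 to 64.6 ± 0.0234 CPM (edgeR adjusted p = 0.00906). Elk3 rose from 73.2 ± 1.06 to 112.2 ± 0.141 CPM and Mrtfa from 33.6 ± 0.550 to 46.9 ± 1.42 CPM. Mrtfb rose from 80.3 ± 1.68 to 96.1 ± 5.97 CPM (edgeR adjusted p = 0.0336). With NCD replicate 1, NCD replicate 2 or HFD replicate 1 left out, Mrtfb was no longer called (edgeR adjusted p = 0.0833, 0.129 and 0.128).

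Downstream, genes that these pathways induce and that feed back on them were mostly higher. Of 18 feedback inhibitors tested, 14 were higher and 0 lower (median log2 change 0.68). Zfp36 and Zfp36l1, whose products speed the decay of early mRNAs, rose from 96.6 ± 1.17 to 269 ± 8.41 CPM and from 83.7 ± 3.29 to 219 ± 3.87 CPM. Dusp1, a phosphatase of JNK and p38, rose from 77.8 ± 6.96 to 174 ± 7.39 CPM, and Spred1, an inhibitor of Ras signalling, from 38.9 ± 0.291 to 84.0 ± 2.11 CPM. Of 12 known AP-1 targets, 8 were higher and 0 lower (median log2 change 1.249). Mmp9, a gelatinase, rose from 1.24 ± 0.155 to 30.3 ± 2.71 CPM, and Timp1, an inhibitor of such proteases, from 4.35 ± 0.604 to 20.9 ± 0.122 CPM. Cd44, a hyaluronan receptor, rose from 68.4 ± 0.656 to 165 ± 5.89 CPM and Plaur, the urokinase receptor, from 44.9 ± 0.146 to 105.3 ± 5.32 CPM.

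**Figure D4:**
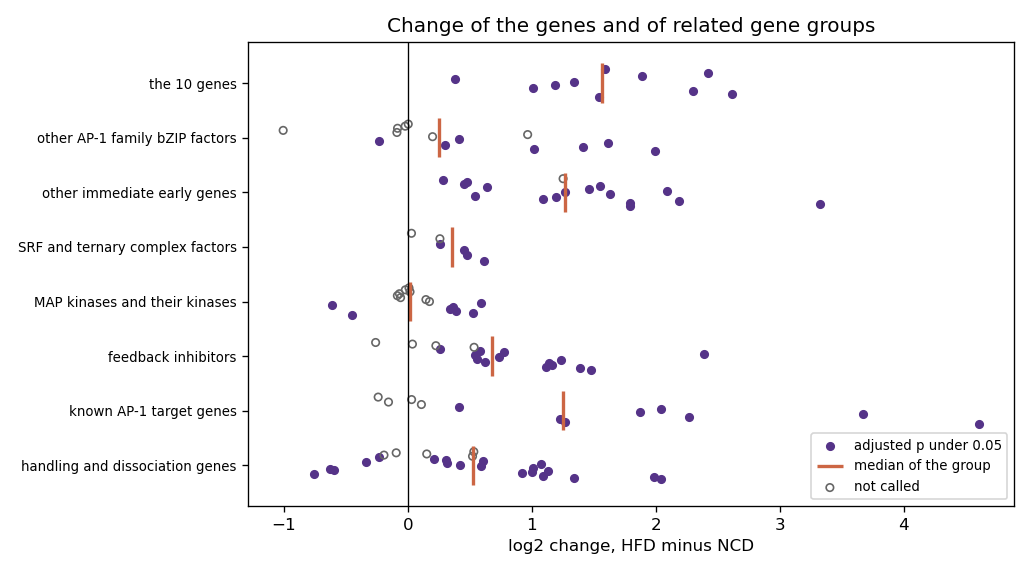
Log2 change, HFD minus NCD, of the 10 genes and of each tested gene of 7 related groups, with filled points for genes called by edgeR and orange bars at the group medians. The medians run from 0.02 for the MAP kinases to 1.26 for the other immediate early genes and 1.57 for the 10 genes.

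Tissue handling bears on these genes, since islet isolation exposes tissue to enzyme and warmth before it is frozen. A list of 25 genes known to respond to dissociation, heat or metal stress, with no member in it, held 15 genes higher, 5 lower and 5 not called in HFD, with a median log2 change of 0.52. The inducible chaperone genes Hspa1a and Hspa1b, near-identical neighbours whose reads can be shared, rose from 85.9 ± 6.86 to 341 ± 25.4 CPM and from 96.1 ± 1.64 to 396 ± 28.3 CPM. Socs3, a cytokine feedback gene, rose from 61.7 ± 0.102 to 156.5 ± 3.38 CPM and Nfkbiz, a nuclear NF-κB regulator, from 103.0 ± 3.41 to 219 ± 0.515 CPM. The 5 lower genes, named after their values were seen, were the metallothionein genes Mt1 and Mt2, the chaperone genes Hspa8 and Hspd1, and Ppp1r15a, a stress-induced phosphatase subunit. Mt1 fell from 1066 ± 35.2 to 705 ± 15.9 CPM and Ppp1r15a from 462.5 ± 23.4 to 299 ± 1.70 CPM. The sum over the list was 8537 and 8870 CPM under NCD and 9474 and 9587 CPM under HFD, on unscaled totals. Mitochondrial transcripts, often followed as a sign of RNA or cell quality, took 2.46% and 2.61% of counts in NCD and 2.29% and 2.26% in HFD. The sources used here do not give digestion times, waiting times or the order of processing, so handling and diet cannot be told apart.

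Marker lists of cell types also differed between the diets, some mostly higher, some mostly lower and some split. Of 7 fibroblast and stellate cell markers all 7 were higher, their sum going from 118 CPM in each NCD library to 1229 and 1260 CPM in HFD, with Col3a1 rising from 22.3 ± 0.126 to 532 ± 7.28 CPM. All 9 acinar markers were higher (463 and 478 CPM in NCD, 3079 and 3642 CPM in HFD), and Cpa1 rose from 35.6 ± 0.407 to 284 ± 30.0 CPM. All 5 B cell markers were higher (523 and 520.4 CPM, then 3432 and 3465 CPM). Most of this sum was Ighm, at 501 ± 1.34 CPM in NCD and 3321 ± 26.1 CPM in HFD. All 6 T cell markers were higher but low (8.54 and 8.72 CPM, then 50.6 and 43.4 CPM), and Cd3e rose from 0.616 ± 0.0159 to 6.07 ± 1.04 CPM. Of 5 endothelial markers 4 were higher and 1 lower (963 and 999 CPM, then 1347 and 1330 CPM). Macrophage markers split, with 3 of 10 higher and 5 lower (952 and 917 CPM, then 804.5 and 809 CPM), and of 8 beta cell markers 0 were higher and 6 lower (17330 and 17810 CPM, then 13520 and 14120 CPM). Ins1 was not called, at 1512 ± 12.6 CPM in NCD and 1566 ± 49.9 CPM in HFD (edgeR adjusted p = 0.320). Of 5 alpha cell markers 3 were higher and 0 lower (9329 and 9781 CPM, then 13270 and 13900 CPM). Most of this sum was Gcg, at 9256 ± 311 CPM in NCD and 13140 ± 465 CPM in HFD. Of 4 ductal markers 2 were higher and 1, Krt7 (named after its values were seen), lower (452 and 461 CPM, then 272 and 290 CPM). Most of the ductal sum was Krt7, at 445 ± 4.04 CPM in NCD and 241 ± 13.3 CPM in HFD. The 2 higher ductal markers were Sox9 (3.96 ± 0.143, then 18.3 ± 2.34 CPM) and Krt19 (6.61 ± 2.20, then 20.4 ± 2.92 CPM). Of 3 delta cell markers 1 was higher and 1 lower, and both PP cell markers were lower. None of 4 neutrophil markers could be tested, and S100a8, Ly6g and Mpo had no count in any library. The part of these cell types in the rise of the 10 genes was not tested.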

How the data were processed

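Total RNA of 4 libraries, 2 per diet, was counted per Ensembl gene. The authors deposited raw counts, 1 table per library. The submitters' processing notes name HISAT, featureCounts 1.5.0, DESeq 1.8.3 and build GRCm38, without role or settings. The sources used here give neither the strand setting nor the handling of reads that match more than 1 gene. Groups and replicate numbers come from the titles.

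Counts were tested in R 4.3.3 with edgeR 4.0.16: filterByExpr with a minimum count of 10, TMM scaling, a quasi-likelihood F test for diet, and Benjamini-Hochberg adjustment over all 21563 genes at 0.05. SE and 95% intervals come from that test. CPM are TMM-scaled, sums over a marker or handling list are not. Gene symbols and exon lengths are from GENCODE M21 (GRCm38), and all 185 listed genes were found. Low counts gathered at multiples of 4 (1.57 to 1.63 times as frequent as neighbouring values), so a single count may stand for less than 1 independent fragment. The reads carry no molecular identifiers, so intervals do not count molecules.

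The fitting code was tested on simulated data, in which chosen genes carried known folds. The setting reported here drew counts with each gene's own dispersion. Under it, each fold was carried by 50 genes, and 16 false calls arose among 20863 genes. Recovered were 2% of the 1.25-fold, 18% of the 1.5-fold, 60% of the 2-fold and 88% of the 4-fold changes. The code thus missed a recovery criterion set earlier for the largest changes. That criterion was then replaced, after its result was seen, by one on unbiased estimates and on the rate of small p-values among unchanged genes, which was met. Moderate and large changes can therefore be missed at this sample size. The false calls were also a larger share of all calls in this simulation than the nominal 0.05, so the adjusted p-values may be too small. Alternatives used DESeq2 1.42.0 (size factors, Wald test), limma 3.58.1 (voom), other filters and library sizes, counts divided by 4, a replicate block and leaving out each library. The members, lists and alternatives were chosen with earlier results of these data known. Named were all members, up to 4 genes of each related list with the smallest p, and Adgre1, Csf1r, Cd68, Ins1, Ins2, Gcg, Cpa1, Col3a1 and Cd3e as cell type checks. A further marker is not reported here. Other genes were named after their values were seen.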

Additional observations from a re-analysis of the deposited data

How the results depend on the processing

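All 10 members were higher in HFD under each of the 12 alternatives (10 also with the replicate block), and none of the 120 recomputed changes lost its call or turned. The widest range was that of Fosb (log2 change 2.45 to 2.78), and the adjusted p nearest the threshold was that of Jund (0.0306 without NCD replicate 2). The labels name no pairing, and the correlation of same-numbered deviations over all genes was 0.00211. With 2 libraries per diet and low counts included, this value cannot exclude shared processing of same-numbered libraries. With the replicate block 3252 genes of all tested were higher and 2583 lower, against 3860 and 3123 without it. The number of all genes lower in HFD ranged from 2015 (without HFD replicate 1) to 2174 when a library was left out. Among other basic leucine zipper factors, 0 were lower once genes averaging under 5 CPM were dropped, and 0 to 0 when a library was left out, against 1. Among feedback inhibitors 0 to 1 were lower when a library was left out, 1 of them without HFD replicate 1, and among AP-1 targets 1 was lower by the DESeq2 Wald test. Of the genes named to check the label, Csf1r was called higher in HFD (86.6 ± 5.09 CPM in NCD, 100.7 ± 1.10 CPM in HFD, edgeR adjusted p = 0.0489). Csf1r lost its call with no filter on low counts and with the replicate block (edgeR adjusted p = 0.07345 and 0.05995). It also lost its call whichever library was left out (log2 change 0.153 to 0.278). Cd68 lost its call without NCD replicate 1 or HFD replicate 1, and Adgre1, not called by edgeR, was called lower by DESeq2 (adjusted p = 0.0180).

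With the longest transcript in place of all exons as length, family shares in NCD and HFD were 56.3% and 57.9% for Fos, 4.81% and 10.4% for Fosb, 3.81% and 6.64% for Fosl1, 35.1% and 25.03% for Fosl2, 13.9% and 17.2% for Jun, 32.6% and 44.9% for Junb, and 53.5% and 37.9% for Jund. The direction of each difference was the same as with all exons. These moves follow from the lengths alone.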
